A study of Homo sapiens with 8 samples.

Results

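The regions described here are the p63-bound regions that the deposited lists give for both CAL27 and SCC13. They were chosen by exact position. A region of the CAL27 list is a member when its chromosome, start and end are identical to those of a region of the SCC13 list. By this rule 4448 regions were members, of 15267 distinct regions in both lists together. Of the others, 9381 appeared in the CAL27 list alone and 1438 in the SCC13 list alone; they are called CAL27-only and SCC13-only regions below.

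CAL27 and SCC13 are established human squamous cell carcinoma lines, and the labels give both as wild type and untreated. The study comprised 8 samples in 4 groups of 2 replicates, namely p63 chromatin immunoprecipitation from CAL27, p63 chromatin immunoprecipitation from SCC13, and the samples titled none of each line. CAL27 was grown in DMEM/F12 medium with serum and SCC13 in a keratinocyte serum-free medium with pituitary extract, EGF and added calcium, so line and medium cannot be told apart. Each list stands for both p63 replicates of its line and gives only positions, in build hg19. A region therefore has no height and no p-value, no spread between replicates can be given, and the depth of the libraries is unknown. All percentages below carry 95% exact Clopper-Pearson intervals that cover counting error only and treat regions as independent.

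p63 is the transcription factor encoded by TP63, a relative of p53 and p73 that binds DNA as a tetramer. It is known for maintaining the basal layer of stratified epithelia, where it acts largely from enhancers and primes the genes of keratins, cell adhesion and later differentiation. The title of the series names FOXK1, a forkhead transcription factor, as a cofactor of p63 in squamous carcinoma. The question open to the lists is which p63 regions 2 carcinoma lines have in common.

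The shared regions made up most of the SCC13 list and a minor part of the CAL27 list. They were 75.6% of the 5886 SCC13 regions (74.5 to 76.7) and 32.2% of the 13829 CAL27 regions (31.4 to 33.0). Of all distinct regions, 29.1% were shared (28.4 to 29.9). These percentages are fixed by the rule that chose the members and serve below as the background for single bands and chromosomes. Among the 15267 distinct regions, 0 pairs overlapped and the smallest gap between neighbours was 66 bp. A region of one line was thus either identical to a region of the other or did not touch any. This describes the deposited positions and not the extent of binding in either line.

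The shared regions were wide as listed. Their median width was 934 bp (95% order-statistic interval 924 to 947), against 723 bp (716 to 729) for CAL27-only and 589.5 bp (576 to 611) for SCC13-only ones. Their quartiles were 746 and 1194 bp, and 480 of them, or 10.8% (9.89 to 11.7), were wider than 1500 bp. The same was true of 333 CAL27-only regions, or 3.55%, and of 15 SCC13-only regions, or 1.04%. Together they covered 4.52 Mb, against 7.48 Mb for CAL27-only and 0.940 Mb for SCC13-only ones. Width comes from the processing that made the lists, so these values describe the members and are not tested. How identical positions in both lists arose is not stated in the labels. A region merged across lines before deposit would carry a merged width and not the width of a peak in either line, and this cannot be told apart from the lists.

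**Figure D1:**
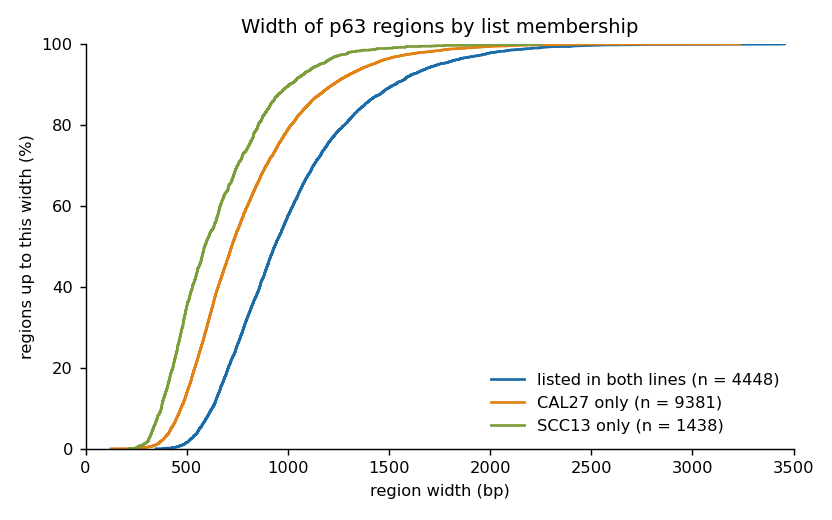
The share of regions (vertical axis, percent) up to each width (horizontal axis, bp) is drawn for the shared, the CAL27-only and the SCC13-only regions. The curve of the shared regions lies to the right of both others, with medians of 934, 723 and 589.5 bp.

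Very narrow regions were seldom shared. Of the regions up to 500 bp wide, 71 were shared, 1297 were CAL27-only and 506 were SCC13-only. The shared ones were 5.19% of the CAL27 list in that class (4.08 to 6.50) and 12.3% of the SCC13 list (9.74 to 15.3). Between 500 and 750 bp the shares were already 22.1% (20.9 to 23.3) and 68.2% (65.8 to 70.5). Above 2000 bp, 97 regions were shared, 57 were CAL27-only and 2 were SCC13-only, so that 63% of the CAL27 regions (54.8 to 70.6) and 98.0% of the SCC13 regions (92.9 to 99.8) of that width were in both lists. Of the 100 widest distinct regions, 63 were shared, and of the 100 narrowest, 0 were.

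**Figure D2:**
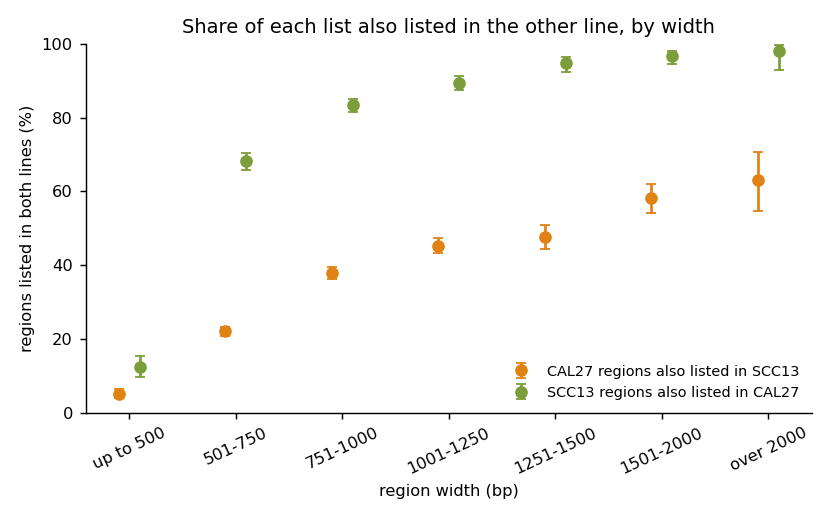
Points give the percentage of CAL27 regions (orange) and of SCC13 regions (green) that are listed in both lines, for 7 classes of region width in bp, with 95% exact intervals. The percentages run from 5.19% to 63% for CAL27 and from 12.3% to 98.0% for SCC13 between the narrowest and the widest class.

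The 20 widest shared regions spanned 2445 to 3456 bp and lay on 13 chromosomes, 4 of them on chromosome 1. The 5 widest measured 3456 bp in band 3q25.33, 3420 bp in 1q21.3, 3335 bp in 1p35.2, 3113 bp in 9q34.3 and 2969 bp in 15q23. They were followed by a region of 2764 bp on chromosome 5 at 36450706 to 36453469, in band 5p13.2. The next were 2735 bp on chromosome 1 at 161449978 to 161452712, in 1q23.3, and 2734 bp on chromosome 7 at 1597757 to 1600490, in 7p22.3. The remaining 12 of the 20 measured 2445 to 2661 bp and lay in 15q15.1, 1p36.33, 14q32.33, 16p13.3, 11q13.5, 22q12.3, 2q37.1, 6p21.1, 3q25.2, 7p15.3, 18q11.2 and 2q31.1. Another shared midpoint lay within 12.5 kb of 3 of the 20, beside 11.4% of all shared regions. A CAL27-only midpoint lay that close to 8 of them, beside 17.5% of all shared regions, and an SCC13-only midpoint to 0, beside 2.23%. The 2548 bp region on chromosome 11 at 76492511 to 76495058, in 11q13.5, was 1.98 kb from the next shared midpoint, whereas the 2735 bp region in 1q23.3 was 406 kb from it.

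At the other end, the narrowest shared region measured 349 bp, on chromosome 1 at 22283423 to 22283771, in band 1p36.12. The next were 382 bp on chromosome 2 at 20292543 to 20292924, in 2p24.1, and 382 bp on chromosome 9 at 137502962 to 137503343, in 9q34.3. They were followed by 387 bp on chromosome 11 at 119483543 to 119483929, in 11q23.3, and 389 bp on chromosome 7 at 148481243 to 148481631, in 7q36.1. All 5 stood alone, with the nearest other shared midpoint 79.2 to 302 kb away. The narrowest regions of either class outside the set were narrower, at 126 bp among CAL27-only and 217 bp among SCC13-only regions.

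Shared regions lay on all 23 chromosomes of the lists, at 1.46 per Mb over their whole length. Chromosomes 19 and 20 had 2.25 per Mb each and chromosome 17 had 2.20, while chromosome 13 had 0.816 and X had 0.567. These lengths include both arms. Taken by arm, 22q had 2.79 per Mb, the highest of any arm, and 13q had 0.966. Chromosome 1 held the most, 493 regions or 11.1% of the set, and chromosome 21 the fewest, 61.

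How much of each list was shared varied between chromosomes. The shared percentage of the CAL27 list ran from 25.3% on chromosome 13 (20.9 to 30.0) to 40.5% on chromosome 4 (36.1 to 45.0). In the SCC13 list it ran from 63.3% on X (54.7 to 71.3) to 88.7% on chromosome 22 (81.4 to 93.8). For the CAL27 list the interval of 15 chromosomes held the overall 32.2%, with chromosomes 1, 4 and 8 above it and 2, 5, 9, 13 and 15 below. For the SCC13 list the interval of 17 chromosomes held 75.6%, with 1, 9 and 22 above it and 4, 8 and X below. Single intervals of this kind miss the true value in about 1 of 20 cases by counting error alone.

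The same chromosome could be rich in shared regions by one list and poor by the other. Chromosome 4 had 200 shared regions, 294 CAL27-only and 100 SCC13-only regions, which gave the highest percentage of the CAL27 list and, at 66.7% (61.0 to 72.0), one of the lowest of the SCC13 list. Chromosome 8 had 211 shared, 350 CAL27-only and 104 SCC13-only regions, or 37.6% (33.6 to 41.8) and 67.0% (61.5 to 72.2). Chromosome 9 showed the opposite arrangement, with 193 shared, 486 CAL27-only and 43 SCC13-only regions, or 28.4% (25.1 to 32.0) and 81.8% (76.3 to 86.5). Chromosome 1 was the only one whose intervals lay wholly above the overall value by both lists, at 34.9% (32.5 to 37.5) and 80.6% (77.2 to 83.6). Across the 23 chromosomes the 2 percentages had a Pearson correlation of -0.144 and a Spearman correlation of 0.0257, given as a description because they have the shared count in common. Copy number and input signal were not analysed here, so their part in these percentages was not tested.

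**Figure D3:**
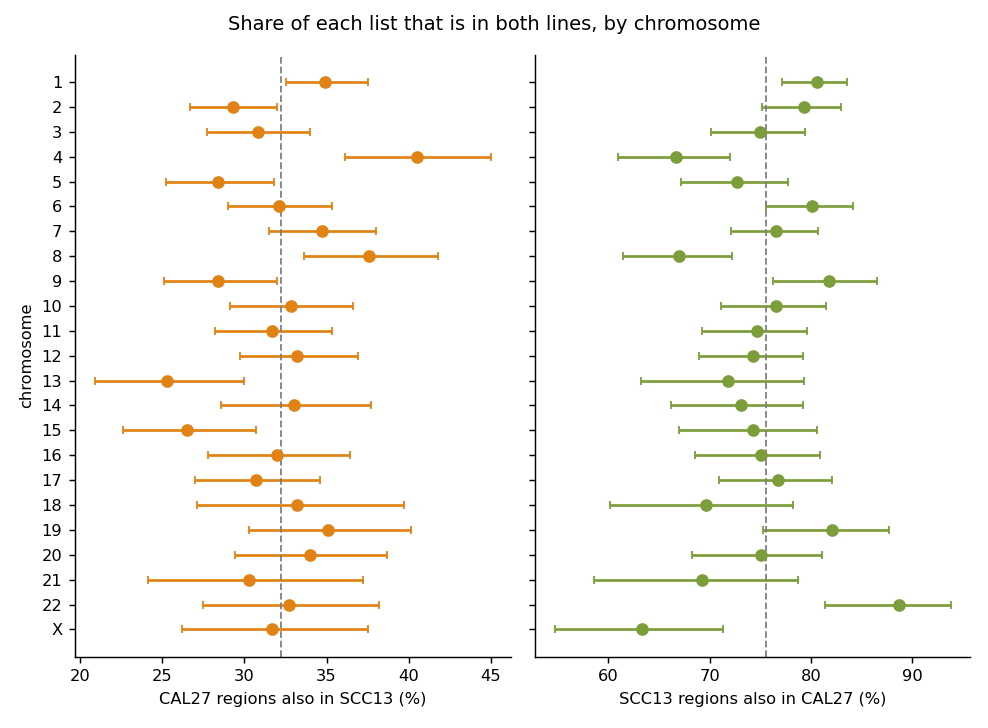
Each row is a chromosome; points give the percentage of its CAL27 regions (left) and of its SCC13 regions (right) that are in both lists, with 95% exact intervals, and dashed lines mark the overall 32.2% and 75.6%. Chromosome 4 is at 40.5% on the left and 66.7% on the right, and chromosome 22 at 32.7% and 88.7%.

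The width of the shared regions also differed between chromosomes. Their median was 786 bp on chromosome 18 (727 to 878), 805 bp on chromosome 4 (762 to 862) and 814 bp on X (708 to 836). It was 1047 bp on chromosome 21 (935 to 1185). On chromosomes 4 and X the CAL27-only regions had low medians as well, 612 and 572 bp, within a range of 572 to 796 bp over all chromosomes. The shared median exceeded the CAL27-only median on all 23 chromosomes, and it exceeded the SCC13-only median on all 23.

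In the staining pattern of the chromosomes, 58.1% of shared regions (56.6 to 59.5) lay in the pale, G-negative bands, against 56.8% of CAL27-only regions (55.7 to 57.8) and 51.1% of SCC13-only regions (48.5 to 53.7). G-negative bands make up 42.4% of the length. Next to centromeres, in the bands marked as centromeric, lay 14 shared, 39 CAL27-only and 13 SCC13-only regions. These were 0.315%, 0.416% and 0.904% of their classes, on 3.40% of the length.

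Single bands held between 0 and 37 shared regions, with a median of 4 over 851 bands. In 64 bands regions were listed but none was shared, and in 65 more no region was listed at all. The 10 bands with the most shared regions held 271 of them, or 6.09% of the set on 1.94% of the length. The leading band was 1q32.1, with 37 shared, 54 CAL27-only and 10 SCC13-only regions. It was followed by 1q21.3 with 33 shared regions, by 8q24.3 and 19p13.3 with 27 each, and by 21q22.3 and 17q25.3 with 26 each. Bands 12q24.31, 1p36.11, 11q13.1 and 6q21 had 25, 24, 23 and 23. In 11q13.1 shared regions lay at 9.20 per Mb, the highest density among the 332 bands with 20 or more regions, and all 23 of its SCC13 regions were shared.

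The percentage of all listed regions that were shared differed widely between these 332 bands. It was highest in 8p23.1, with 14 shared of 24 regions or 58.3% (36.6 to 77.9), followed by 6p24.3 and 1q21.3. In 16q12.1 it was 0 of 23, with an exact interval up to 14.8%, although the neighbouring band 16q12.2 had 16 shared of 31, or 51.6% (33.1 to 69.8). Bands with 9.68% or less also included 9q21.33, with 3 shared and 28 CAL27-only regions, and 13q13.3, with 2 shared, 18 CAL27-only and 5 SCC13-only regions.

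Genes of squamous epithelium were followed through the bands that hold them. A band spans megabases and many genes, and gene models of hg19 were not used here, so a region counted below is in the same band as the gene and was not assigned to it. The 37 bands chosen hold 55 genes of lineage control, keratins, adhesion, barrier formation, the p53 response and growth factor signalling. All 37 bands had at least 1 shared region. Of all 851 bands, 129 had none, and 65 of those had no listed region at all. Each of the 37 bands held 16 or more listed regions, so the presence of a shared one says little about the genes. Together the 37 bands had 499 shared of 1449 regions, or 34.4% (32.0 to 36.9), against 29.1% over all regions. The interval of 33 of the 37 bands held the overall 29.1%, with 3 above it and 1 below.

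For the bands of the p53 family and the forkhead genes, no interval of the shared percentage lay apart from the background. Band 3q28, which holds TP63, had 13 shared, 21 CAL27-only and 2 SCC13-only regions, or 36.1% shared (20.8 to 53.8). Band 1p36.32, which holds TP73, the gene of the related factor p73, had 10, 16 and 3, or 34.5% (17.9 to 54.3). Band 7p22.1, which holds FOXK1, had 10, 23 and 1, so that 29.4% of its regions were shared (15.1 to 47.5). In 17q25.3, the band of FOXK2 and of the epidermal differentiation factor ZNF750, 26 of 79 regions were shared, or 32.9% (22.7 to 44.4). These 4 intervals all held 29.1%, but they are too wide to show that the percentages were close to it.

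Among the bands of TFAP2A, KLF5, GRHL2, SOX2 and TFAP2C, only that of TFAP2A had an interval above the background. Band 6p24.3 holds TFAP2A, a factor of surface ectoderm, and DSP, which encodes the desmosomal linker desmoplakin. It had 13 shared, 7 CAL27-only and 3 SCC13-only regions, or 56.5% (34.5 to 76.8), an interval above the background. Of the 16 regions of 13q22.1, the band of the basal factor KLF5, 8 were shared, or 50.0% (24.7 to 75.3). Band 8q22.3, with the epithelial factor GRHL2, had 17 shared of 43 regions, or 39.5% (25.0 to 55.6). In 3q26.33, the band of SOX2, which is amplified in many squamous tumours, 6 of 22 were shared, or 27.3% (10.7 to 50.2). In 20q13.31, the band of TFAP2C, 9 of 27 were shared, or 33.3% (16.5 to 54.0). The intervals of 13q22.1, 8q22.3, 3q26.33 and 20q13.31 all held 29.1%.

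Among bands of keratins and of anchoring structures, most intervals for all listed regions held the background. Band 12q13.13, with the basal type II keratin gene KRT5, had 13 shared, 19 CAL27-only and 6 SCC13-only regions. Band 17q21.2, with its type I partner KRT14, had 18, 27 and 2, so that 18 of 20 SCC13 regions there were shared, or 90.0% (68.3 to 98.8). Among hemidesmosome genes, the band of ITGA6, 2q31.1, had 19 shared of 62 regions and that of ITGB4, 17q25.1, had 11 of 53; they encode the 2 chains of the integrin that anchors basal cells. Band 10q25.1, with the hemidesmosomal collagen gene COL17A1, had 2 of 21, or 9.52% (1.17 to 30.4). The desmosomal cadherin genes DSG1 to DSG3 and DSC2 and DSC3 lie in 18q12.1, where 5 shared, 12 CAL27-only and 8 SCC13-only regions were listed. There 20.0% of all regions were shared (6.83 to 40.7) and 29.4% of the CAL27 regions (10.3 to 56.0). These intervals held the 29.1% of all regions and the 32.2% of the CAL27 list. Of the SCC13 regions in the band, 38.5% were shared (13.9 to 68.4), an interval below the 75.6% of the whole SCC13 list.

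The band of the epidermal barrier genes had a higher shared percentage than the background. Band 1q21.3 holds the epidermal differentiation complex, a cluster with the cornified envelope genes IVL, LOR and SPRR1A, the filaggrin gene FLG and the calcium-binding S100A2 and S100A7. It had 33 shared, 23 CAL27-only and 3 SCC13-only regions. The shared percentage was 55.9% of all its regions (42.4 to 68.8), 58.9% of its CAL27 regions (45.0 to 71.9) and 91.7% of its SCC13 regions (77.5 to 98.2). All 3 intervals lay above the overall percentages, a difference that was not tested since the band was picked with its values known. Band 11q13.1, with the differentiation factor OVOL1, had 23 shared of 53 regions, or 43.4% (29.8 to 57.7). This interval also lay above the 29.1% of all regions, but it held the 32.2% of the CAL27 list. Band 1p36.11, with GRHL3 and the 14-3-3 sigma gene SFN, had 24 of 60 (27.6 to 53.5), an interval that held 29.1%.

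Of 4 bands of p53-pathway genes given here, 3 had intervals that held the background and 1 lay below it. Band 1p36.11, given above, holds SFN, another gene of the pathway, and its interval (27.6 to 53.5) also held the background. Further genes of the pathway were not followed. Band 6p21.2, with the cell cycle inhibitor gene CDKN1A, had 12 shared, 15 CAL27-only and 1 SCC13-only regions, or 42.9% (24.5 to 62.8). Band 10q23.31, with the death receptor gene FAS, had 12 shared of 33 regions, or 36.4% (20.4 to 54.9). Band 3q26.32, with the p53 target gene ZMAT3, had 6 of 23, or 26.1% (10.2 to 48.4). Band 12q15, with MDM2, the ubiquitin ligase of p53, had 4, 24 and 5, or 12.1% (3.40 to 28.2), the only one of the 37 intervals that lay wholly below 29.1%. For growth factor receptors, 7p11.2 with EGFR had 11 shared of 32 regions, 17q12 with ERBB2 had 12 of 43 and 10q26.13 with FGFR2 had 13 of 49. Band 9q34.3, with NOTCH1, had 15 shared of 45, and 16q22.1, with the cadherin genes CDH1 and CDH3, had 16 of 49. Each of these 5 intervals held 29.1%.

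**Figure D4:**
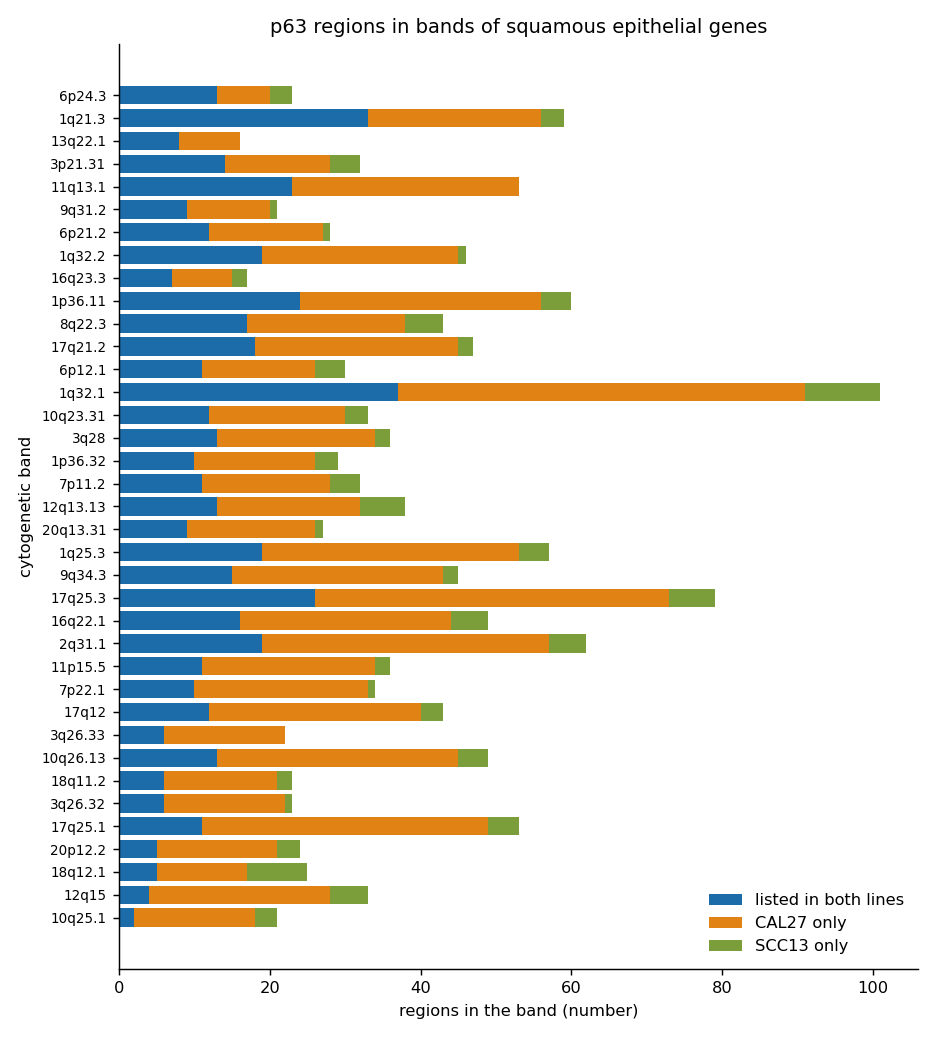
Bars count the p63 regions in 37 cytogenetic bands that hold named squamous epithelial genes, split into shared, CAL27-only and SCC13-only regions and ordered from the highest shared percentage to the lowest. Bands 6p24.3 and 1q21.3 lead with 56.5% and 55.9%, and 10q25.1 is last with 9.52%.

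Along the chromosomes most shared regions stood alone. The median distance between neighbouring shared midpoints was 282 kb (265 to 299), with quartiles of 86.1 and 709.7 kb. The closest pair was 0.879 kb apart. Of 4448 shared regions, 3941 or 88.6% had no other shared midpoint within 12.5 kb. There were 221 pairs and 20 groups of 3 or more, which held 65 regions or 1.46% of the set. Of these 20 groups, 15 had no line-only region between their members, 4 had a CAL27-only region and 1 had an SCC13-only region. Shared regions in pairs had a median width of 1001 bp (949 to 1043), against 928 bp (916 to 941) for single ones, and those in groups of 3 or more had 968 bp (830.0 to 1048).

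The group with the most members was found in 8q11.21, between 49608580 and 49626684 on chromosome 8. Its 5 regions were 1018, 1269, 858, 1243 and 701 bp wide, within 18.1 kb. A group of 4 on chromosome 7 at 43607969 to 43626453, in 7p13, had widths of 674, 510, 1082 and 886 bp. The group of 4 in 1p36.32, the band of TP73, at 3597452 to 3616248, had widths of 776, 558, 1470 and 1709 bp. The last group of 4, on chromosome 6 at 30843760 to 30870448, in 6p21.33, was the only one of these 4 with a line-only region inside, a CAL27-only one.

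There were 16 groups of 3, and the 6 with the shortest spans are given here. The tightest were on chromosome 4 at 75275837 to 75282284, in 4q13.3, over 6.45 kb, and on chromosome 1 at 27848792 to 27855301, in 1p36.11, over 6.51 kb. The others lay on chromosome 1 at 43401825 to 43409321, in 1p34.2, on chromosome 5 at 52323288 to 52333691, in 5q11.2, and on chromosome 3 at 5036328 to 5046932, in 3p26.1. A second group of 1p36.11, the band of SFN and GRHL3, at 27181081 to 27192429, had the widest members, of 1246, 2394 and 1376 bp, and a CAL27-only region between them.

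**Figure D5:**
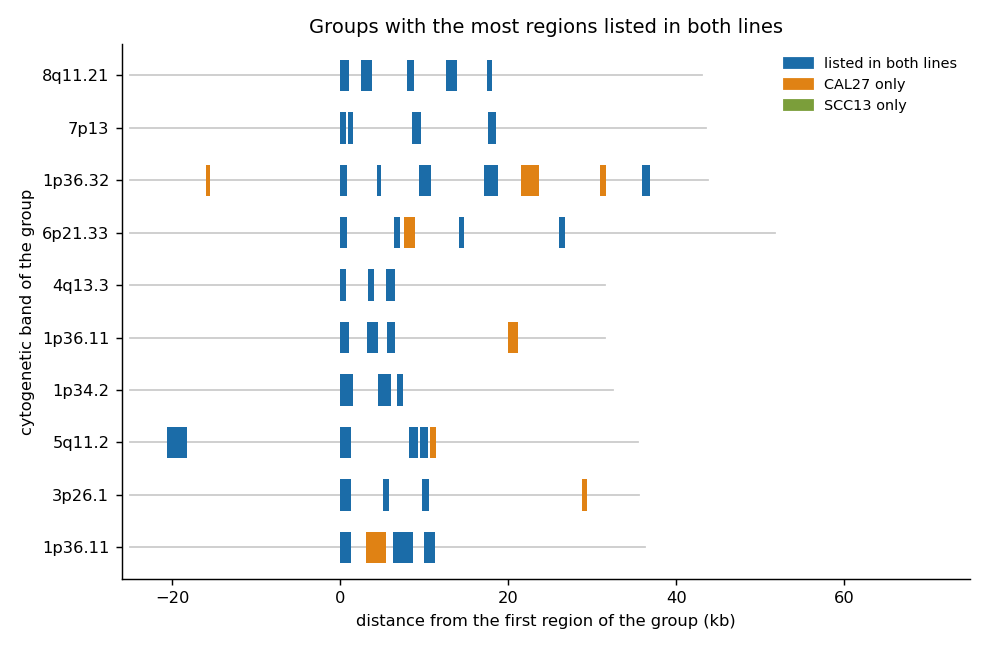
Each row is one of the 10 groups with the most shared regions, drawn to scale by the distance in kb from the first shared region of the group and labelled by its cytogenetic band; all listed regions within 25 kb of a group are shown, coloured by list membership. The 8q11.21 group has 5 shared regions within 18.1 kb and no line-only region in view.

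Shared regions followed a shared region about as often as the background over all distances, and more often within 12.5 kb. The next listed region after a shared one was itself shared in 30.3% of 4444 cases (28.9 to 31.7), against 28.7% of 10800 cases after a line-only region (27.8 to 29.5) and 29.1% of all regions. Within 12.5 kb the next region was shared in 36.8% of 661 cases after a shared region (33.1 to 40.6) and in 31.1% of 1497 cases after a line-only one (28.8 to 33.5). The interval after a shared region lay above 29.1%, that after a line-only region held it, and their difference was not tested. Beyond 12.5 kb the value after a shared region was 29.2% (27.7 to 30.6). An unshared CAL27 region was a common neighbour: 17.5% of shared regions (16.4 to 18.6) had a CAL27-only midpoint within 12.5 kb, 11.4% (10.5 to 12.4) another shared one and 2.23% (1.81 to 2.70) an SCC13-only one. This order follows the numbers of regions in the 3 classes.

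The shared percentage was higher in the densest sites. Over all listed regions, it was 28.2% (27.4 to 29.1) for regions with no neighbour within 12.5 kb, 31.3% (29.6 to 33.1) in pairs and 31.4% (28.6 to 34.3) in groups of 3 to 4. In groups of 5 or more, 37 of 70 regions were shared, or 52.9% (40.6 to 64.9). By the SCC13 list the percentage was 72.7% (71.3 to 74.0) for single regions, 83.0% (80.6 to 85.3) in pairs and 86.5% (82.7 to 89.8) in groups of 3 to 4. By the CAL27 list it differed less over these same classes, at 31.6% (30.7 to 32.5), 33.5% (31.7 to 35.4) and 33.0% (30.1 to 36.0). In groups of 5 or more it was higher by either list, at 53.6% of the CAL27 regions (41.2 to 65.7) and 97.4% of the SCC13 regions (86.2 to 99.9). Members of a group lie at one site and are not independent, so these intervals are too narrow.

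Uninterrupted stretches of shared regions were short. Of 3102 runs of consecutive shared regions, 2178 consisted of 1 region, 89 had 4 or more and the longest had 7. That run lay in 7p13 on chromosome 7 at 43607969 to 43818923 and began with the group of 4 described above. Runs of 6 lay in 3q25.33, 19q13.32, 1q21.3, 16q12.2, 2p13.1 and 1p36.21. The 3q25.33 run, on chromosome 3 at 159449761 to 159547810, contained the widest region of the set, with neighbours of 521, 1251, 758, 973 and 903 bp. In the barrier gene band 1q21.3 the run reached from 152877535 to 153147819 on chromosome 1, and its 6 regions were 1015 to 2180 bp wide, all above the median of the set. Of 19 runs of 5, the 3 with the shortest spans lay in 8q11.21, 17q25.1, which is the band of ITGB4, and 8q24.11.

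Stretches without a shared region were longer, as their larger number of regions allows. The longest run of unshared regions crossed the centromere of chromosome 16, at 34599563 to 52024489, with 22 CAL27-only and 6 SCC13-only regions. The next lay in 9q21.33 on chromosome 9 at 86915126 to 89285667, where 25 CAL27-only regions followed each other with 0 SCC13-only regions between them, over 2371 kb. Runs of 22, 21 and 21 lay in 20p11.21 to 20q11.21, in 14q13.2 to 14q21.1 and in 1p31.3 to 1p31.1. Within 1 chromosome arm, the longest distance between neighbouring shared regions was 23.7 Mb on X, from Xq13.2 to Xq21.33, where 7 CAL27-only and 7 SCC13-only regions were listed. It was followed by 15.2 Mb on X, from Xq26.3 to Xq28, with 16 CAL27-only and 4 SCC13-only regions.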

How the data were processed

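Chromatin of both lines was crosslinked with 1% formaldehyde for 10 min and precipitated with 10 ug of antibody to p63, as the labels' protocols state. Per the submitters' processing notes, the build was hg19 and the tools were Bowtie2, SAMtools 1.8 and MACS2. What each tool was used for, the peak threshold and how replicates were merged are not stated there. For each line the authors deposited 1 list with 3 columns (chromosome, start, end) and without scores. Positions count from 1.

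Regions were matched by identical positions. Groups join midpoints within 12.5 kb; runs follow the order of all distinct regions on a chromosome. Bands and lengths of hg19 came from circlize 0.4.16 (R 4.3.3); a region belongs to the band of its midpoint. Bands of genes are textbook knowledge; their chromosomes matched the RefSeq table (GRCh38, used for names only) for 55 of 55 genes. No hg19 genome or gene models were used, so motifs, sequences and distances to genes were not analysed here. Calculations used Python 3.11.15, pandas 2.3.3, scipy 1.17.1 and matplotlib 3.10.9, tested on simulated data.

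Without replicate lists no test was made; percentages have 95% Clopper-Pearson intervals and medians exact order-statistic intervals. Members, gene lists and bands were chosen with earlier results of these data known. Named regions are the 20 widest, the 5 narrowest, the 10 largest groups, the 10 longest shared and 5 longest unshared runs (ties by shorter span) and the 10 bands with most shared regions. The bands with the highest and lowest percentages (20 or more regions), single chromosomes and long gaps were picked after their values were seen. Alternatives were other overlap rules, joining distances and subsets.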

Additional observations from a re-analysis of the deposited data

How the results depend on the processing

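No paired analysis was possible because each line has 1 list for both replicates; for the same reason no replicate could be left out. The alternatives for distances to genes and for motifs were not run, since no hg19 gene models or genome were used. Of 17 alternatives, 9 left the value within its interval or a count within 1.5 times. Of these, the other 2 overlap rules could only return the same 4448 regions, since distinct regions never overlapped. Among regions wider than the median of 773 bp, 88.8% of SCC13 and 43.9% of CAL27 regions were shared, in place of 75.6% and 32.2%; the next region after a shared one was then shared in 42.9% of cases in place of 30.3%, beside 41.6% of all regions of that width. With neighbours within 12.5 kb counted once, 35.0% of CAL27 sites were shared. The median shared width was 921 bp without regions that had a listed neighbour within 12.5 kb, an alternative added after the data were examined, as were those for the next region. The 20 groups of 3 or more became 5 at 5000 bp and 64 at 25000 bp, as the joining distance dictates. Chromosomes spanned 15.2 percentage points by the CAL27 list and 25.4 by the SCC13 list, a different denominator. Since no depth is given, absence from a list does not show that a site was unbound.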
